A study of Mus musculus with 6 samples.

Results

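The apolipoprotein L genes of the mouse were followed in MuTuDC1940 cells with and without poly(I:C), beginning with Apol7c, the gene named in the title of the series. The members are 10 genes taken by symbol (Apol6, Apol7a, Apol7b, Apol7c, Apol7e, Apol8, Apol9a, Apol9b, Apol10b and Apol11a), of 32903 gene symbols in the table. RefSeq lists 14 Apol genes, 13 of them on chromosome 15, and the others (Apol7d, Apol10a, Apol11b and the pseudogene Apol10c-ps) are given below only by their values where the table has them.

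MuTuDC1940 is a single mouse dendritic cell line, taken from a tumour of mice whose CD11c promoter drives the SV40 large T antigen, so both groups share that transgene. It is used as a stand-in for type 1 conventional dendritic cells (cDC1), the subset that presents engulfed antigen on MHC class I. One group was given poly(I:C), a synthetic double-stranded RNA, for 18 hours (5 µg/ml), and the other was left untreated. Of 3 samples per group in the series, 2 libraries per group are used: the table has 6 value columns but 5 names, and those headed NT01 and NT02 (untreated) and PolyIC01 and PolyIC02 (treated) have the same group however the names are placed. The values are TPM, the abundance of a transcript after correction for its length, and sum to 1000000 in each library, so levels can be compared between genes, while the sequencing depth is unknown and no counting error can be given. All 12 cDC1 markers listed had a mean of at least 0.5 TPM, from Itgae at 0.490 to 0.918 TPM up to Irf8 at 2477 to 2639 TPM. With poly(I:C) 5 of them rose, 4 fell (Cd24a, Tlr3, Flt3 and Batf3) and 3 did not pass the test described below. Of all 12520 tested genes 28.4% rose and 32.4% fell, so the share of these markers that fell was near the background. The sum of the 12 markers was 5299 to 5308 TPM untreated and 5103 to 5222 TPM treated.

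Apolipoprotein L proteins carry a helical region related to that of pore-forming colicins and of the BCL2 family, and insert into membranes. The best known, human APOL1, is the serum factor that lyses trypanosomes by opening a channel in their membranes. Mice have no direct copy of it but carry a local cluster of related genes, several of which are known to answer interferon. In phagocytes such proteins matter because a phagosome whose membrane is opened lets engulfed antigen reach the cytosol, the first step of one route of cross-presentation.

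With poly(I:C), Apol7c, Apol9a, Apol9b and Apol7b rose and Apol10b showed no detectable difference. Apol7c gained by far the most TPM, and it took over from Apol10b as the member with most of the family's RNA. At an adjusted p under 0.05 in limma, 4 of the 5 members tested rose and none fell, where 28.4% of the 12520 tested genes rose and 32.4% fell. Of these 4, Apol9a and Apol9b passed the limit of 0.5 TPM through the treated libraries alone, so a difference was built into their being tested, and the count is read as no support beyond the background. In the same 4 the groups did not overlap and treated was higher, as in 38.9% of tested genes, and in none of the 5 was treated lower without overlap, as in 42.4%. The Apol genes together went from 78.3 and 72.3 TPM in the untreated libraries to 407 and 395 TPM in the treated ones, 5.32-fold by the ratio of means. Apol10b held 83.1% and 83.6% of this total in the untreated libraries and 15.3% and 14.9% in the treated ones. Apol7c held 13.8% and 13.9% before and 78.2% in both treated libraries. The ratio of Apol7c to Apol10b TPM was 0.167 and 0.166 untreated and 5.12 and 5.24 treated, so the order of the top 2 members was turned round. All remaining Apol genes together made up 2.42 and 1.76 TPM untreated and 26.2 and 27.3 TPM treated.

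**Figure D1:**
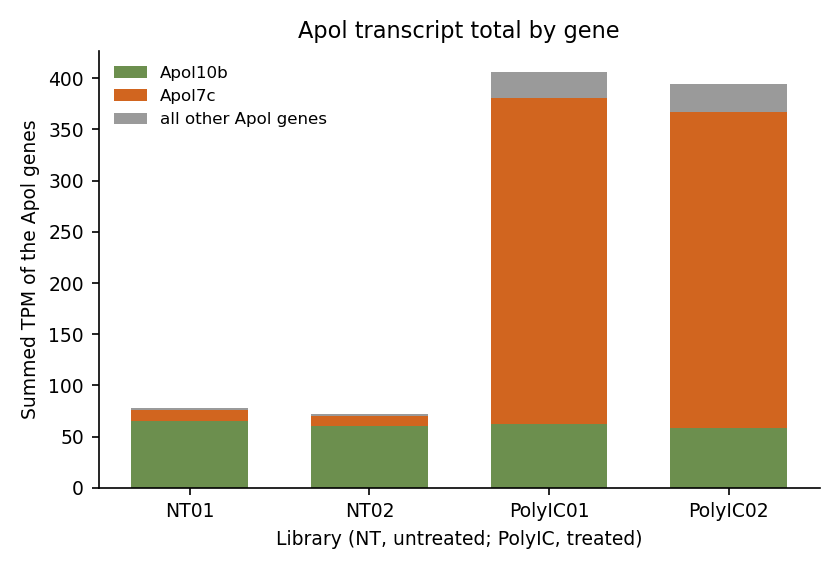
Summed TPM of the Apol genes of the table in each of the 4 libraries, stacked by gene (Apol10b, Apol7c and all other Apol genes); the vertical axis starts at 0. The Apol10b block keeps nearly the same height in the 4 bars, while the Apol7c block grows from 10.8 and 10.1 TPM to 318 and 309 TPM.

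The bases before the start sites of 5 members are shown so that members that rose, one under the limit (Apol7e) and the level Apol10b can be read side by side. The next lines print the 250 bases before the RefSeq start site (GRCm38.p6), 5′ to 3′ on the strand of the gene, in lower case. Capitals mark matches to GAAA NN GAAA (N is any base, with no gaps), the core of the interferon-stimulated response element (ISRE), which is bound by interferon regulatory factors; on these strands each match reads as its reverse complement TTTC NN TTTC. The windows are chr15:77533316-77533565 (minus strand) for Apol7c, chr15:77698639-77698888 (plus) for Apol7e, chr15:77447461-77447710 (minus) for Apol7b, chr15:77411081-77411330 (minus) for Apol9a and chr15:77596126-77596375 (minus) for Apol10b.
Apol7c: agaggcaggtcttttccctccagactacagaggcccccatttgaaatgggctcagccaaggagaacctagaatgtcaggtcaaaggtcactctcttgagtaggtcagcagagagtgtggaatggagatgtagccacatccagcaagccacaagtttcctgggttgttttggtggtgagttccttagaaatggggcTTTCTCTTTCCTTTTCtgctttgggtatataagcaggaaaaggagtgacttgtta
Apol7e: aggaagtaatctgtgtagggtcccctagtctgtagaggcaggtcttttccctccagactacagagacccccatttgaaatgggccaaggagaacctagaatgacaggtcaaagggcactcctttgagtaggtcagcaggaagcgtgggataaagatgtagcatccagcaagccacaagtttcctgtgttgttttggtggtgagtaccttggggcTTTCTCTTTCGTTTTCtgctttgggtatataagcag
Apol7b: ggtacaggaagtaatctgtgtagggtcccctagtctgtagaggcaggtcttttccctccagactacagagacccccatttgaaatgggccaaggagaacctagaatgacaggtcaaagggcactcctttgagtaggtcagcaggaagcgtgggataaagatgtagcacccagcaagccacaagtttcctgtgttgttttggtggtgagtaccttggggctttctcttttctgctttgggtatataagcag
Apol9a: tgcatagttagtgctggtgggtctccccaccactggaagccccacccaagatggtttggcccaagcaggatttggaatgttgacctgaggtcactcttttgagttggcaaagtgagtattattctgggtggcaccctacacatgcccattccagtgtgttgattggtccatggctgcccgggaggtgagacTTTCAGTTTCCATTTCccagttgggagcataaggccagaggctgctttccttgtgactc
Apol10b: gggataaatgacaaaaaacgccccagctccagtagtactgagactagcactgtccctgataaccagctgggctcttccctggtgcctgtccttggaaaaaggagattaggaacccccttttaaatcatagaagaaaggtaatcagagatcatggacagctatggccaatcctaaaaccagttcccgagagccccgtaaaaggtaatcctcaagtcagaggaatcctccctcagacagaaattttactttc

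The ISRE core, searched on both strands with overlaps allowed, was found in 2.98% of the 32851 promoter windows of the same length in the RefSeq table, and 2 or more matches in 0.180%. Of the 11 Apol genes with a window, 7 held at least 1 match, and 5 of the 9 members with a window did (Apol6 has none in the table). Apol7c, Apol7e, Apol9a and Apol9b each held 2 overlapping matches. In Apol7c the pair lay between 55 and 40 bases before the start site, in Apol7e between 36 and 21, in Apol9a between 59 and 44 and in Apol9b between 37 and 22. The Apol9b window is not printed because it was identical to that of Apol9a over the aligned bases. Apol7b, whose window was 99.6% identical to that of Apol7e over the aligned bases, held no match, and neither did Apol10b, Apol7a or Apol8. Apol11a and Apol11b, which lie on either side of Apol7c and Apol10b, had identical windows with a single match each, 50 to 41 bases before the start. The interferon-gamma motif GAS (TTCNNNGAA, in 7.02% of windows) was found in Apol10a, Apol11a and Apol11b, and the NF-kB motif (in 7.25% of windows) in none of the 11. For Apol10b and Apol7e the RefSeq gene reaches 2417 and 3183 bases further upstream than the start site used, so other start sites were not searched. A match describes letters in a window, and its part in any change was not tested.

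Apol7c encodes the pore-forming protein after which the series is titled. It lies on the minus strand of chromosome 15 (chr15:77524852-77533335, GRCm38). Without poly(I:C) it reached 10.8 TPM in NT01 and 10.1 TPM in NT02, and with it 318 and 309 TPM. The libraries of each group lay close together and the groups far apart, with means of 10.5 ± 0.551 and 313 ± 6.70 TPM (SD, n = 2). By level, Apol7c stood at ranks 7628 and 7698 of 32903 symbols without poly(I:C) and at ranks 455 and 467 with it. The difference of log2(TPM + 1), a scale that shrinks the changes of low genes, was 4.78 (SE 0.046, 95% interval 4.66 to 4.89, adjusted p = 3.66e-07 in limma). This was the 10th largest of 12520 tested genes, tested where their mean over the 4 libraries was at least 0.5 TPM. Of those genes 5.69% passed with a rise of at least 2-fold. Of the 31-base words of Apol7c transcripts (GENCODE M21), 21.6% also occur in another Apol gene. The share found in any other gene, Apol genes included, was 38.1%. Whether reads of those genes enter the Apol7c value was not tested.

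The genes whose level and response were closest to those of Apol7c were picked by Euclidean distance over the log2(TPM + 1) values of the 4 libraries. In order they were Oasl2 (distance 0.413), Slfn5 (0.737), Cxcl9 (1.01), Zbp1 (1.203) and Ly6a (1.29). Oasl2, of the 2'-5' oligoadenylate synthetase-like family, was at 11.8 and 11.5 TPM untreated and at 269 and 258 TPM treated. Its log2 change was 4.38 (95% interval 4.28 to 4.48). Zbp1, a sensor of Z-form nucleic acid, was at 19.6 and 17.8 TPM untreated and at 254 and 243 TPM treated. With 4 libraries in 2 groups, such a distance reflects little more than the 2 group levels.

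**Figure D2:**
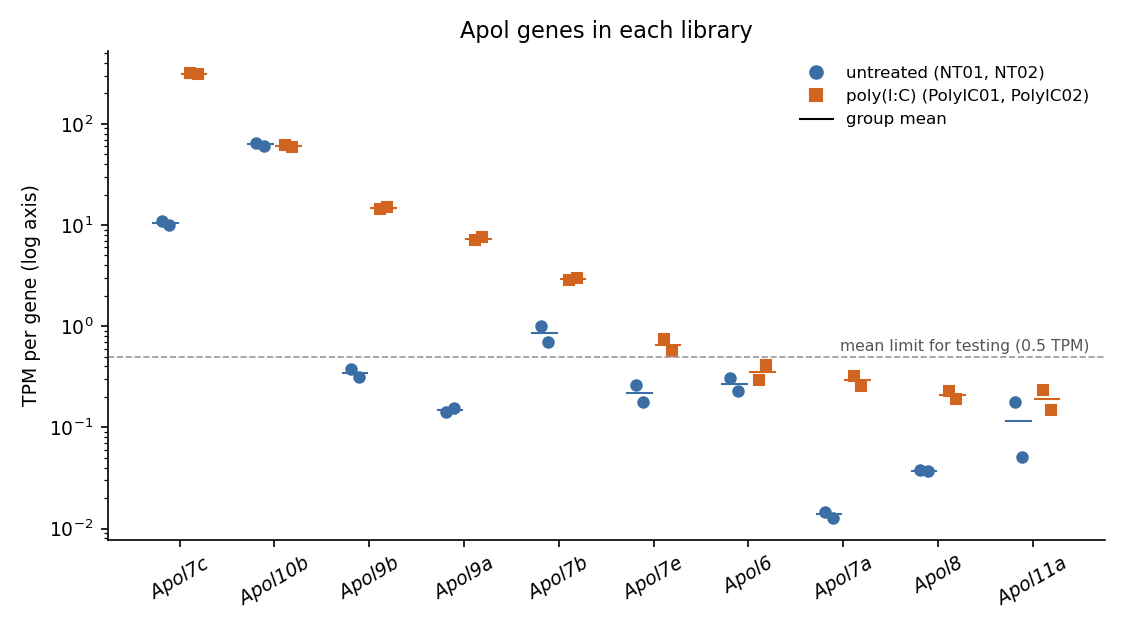
TPM of the 10 members in each library on a log axis, untreated libraries as circles and treated ones as squares, with a short line at each group mean (n = 2 libraries per group) and a dashed line at the 0.5 TPM limit, which applies to the mean of the 4 libraries. Apol7c, Apol9a and Apol9b stand far apart between groups, Apol10b overlaps, and the 5 members at the right have means under the limit.

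Apol9a and Apol9b are a pair of interferon-inducible genes whose products bind the membrane lipid phosphatidylethanolamine. They lie near opposite ends of the main cluster, Apol9a at chr15:77403789-77411080 and Apol9b at chr15:77729047-77736382. Apol9b was at 0.379 and 0.313 TPM untreated and at 14.3 and 15.1 TPM treated, 42.5-fold by the ratio of means. Apol9a was at 0.142 and 0.156 TPM untreated and at 7.12 and 7.56 TPM treated, 49.2-fold. By this ratio both exceeded the 29.96-fold of Apol7c, although their treated levels stayed at a small part of its level. On the log2(TPM + 1) scale, where low genes are pulled down, the order was the other way, with 3.54 for Apol9b (95% interval 3.33 to 3.76, adjusted p = 3.11e-06 in limma) and 2.86 for Apol9a (2.64 to 3.08, adjusted p = 7.35e-06), ranks 35 and 73 of the tested genes. With a pseudocount of 0.01 in place of 1 the changes were 5.37 and 5.53, above the 4.90 of Apol7c. Both genes were under 0.5 TPM in the untreated libraries and passed the limit through the treated ones alone, so a difference between groups was built into their being tested.

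Their coding sequences were 98.5% identical, and 64.9% of the 31-base words of Apol9b transcripts also occur in Apol9a (GENCODE M21 transcripts), so the split between them is uncertain. Their sum does not depend on that split: it was 0.521 and 0.469 TPM untreated and 21.5 and 22.6 TPM treated, 44.5-fold, a value with no test that was chosen after the data had been seen.

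Apol7b lies between Apol9a and Apol7c and is a close relative of Apol7c, 88.8% identical over the coding sequence. It was at 1.01 and 0.705 TPM untreated and at 2.88 and 3.02 TPM treated, 3.44-fold, with no overlap. The log2 difference was 1.09 (SE 0.113, 95% interval 0.81 to 1.37, adjusted p = 0.000532 in limma). Its level untreated was above 0.5 TPM, so it did not need the treated libraries to be tested. Without any limit on low values its adjusted p was 0.127 in limma, under which setting 1.35% of genes rose.

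Apol7e was the member just outside the limit, with a mean of 0.438 TPM against 1.90 TPM for Apol7b, the lowest member inside it. It was at 0.261 and 0.176 TPM untreated and at 0.746 and 0.566 TPM treated, 3.00-fold, again with no overlap. Apol7b and Apol7e have coding sequences 98.9% identical and share 79.4% of the 31-base words of Apol7b, so reads of either can be counted for the other. Summed, the pair was at 1.27 and 0.882 TPM untreated and at 3.62 and 3.58 TPM treated, 3.35-fold, also chosen after the data had been seen.

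Apol10b lies at chr15:77584154-77598542. Without treatment it had the highest level of all members, 65.1 and 60.5 TPM, and with poly(I:C) it was at 62.2 and 58.9 TPM. The groups overlapped, with the lower untreated library below the higher treated one. The log2 difference was -0.05 (SE 0.051, 95% interval -0.18 to 0.07, adjusted p = 0.412 in limma). This interval does not reach those of the 4 members that rose. The genes nearest to Apol10b by the same distance were Smu1 (0.061), Srpk1 (0.066), Osbpl9 (0.067), Stk25 (0.069) and Kdm2b (0.073). None of these passed the test, but they were picked by the values that the test uses, so this adds nothing about Apol10b. From curated transcripts alone, however, Apol10b fell by 0.18 on the log2 scale (adjusted p = 0.0298 in limma). In that fit 30.8% of genes fell and 23.0% rose. It rests on the only curated row of Apol10b, NM_177820.4, whose same values did not pass among all transcripts (adjusted p = 0.0917 in limma). The call thus depends on which other rows are fitted with it.

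The remaining members were low in every library. Apol7a was at 0.0147 and 0.0129 TPM untreated and at 0.323 and 0.259 TPM treated. It is 90.8% identical to Apol7c over the aligned coding bases and 12.7% of its 31-base words occur in Apol7c, which was at 318 and 309 TPM in the same treated libraries. Whether reads of Apol7c enter its value was not tested. Apol8, whose 31-base words are nearly all its own (0.232% shared with other Apol genes), was at 0.0377 and 0.0372 TPM untreated and at 0.230 and 0.189 TPM treated. Apol6, whose human counterpart is known to promote cell death, was at 0.309 and 0.227 TPM untreated and at 0.291 and 0.413 TPM treated, so its groups overlapped. Apol11a overlapped as well, at 0.180 and 0.0513 TPM untreated and at 0.236 and 0.149 TPM treated. Of these 5 untested members including Apol7e, 3 had both treated libraries above both untreated ones, a pattern seen in 30.7% of all genes under the limit with any value above 0. Outside the members, Apol10a was at 0.0402 and 0.0509 TPM untreated and 0.0625 and 0.0804 TPM treated, Apol11b between 0.0162 and 0.0458 TPM in the 4 libraries, and Apol7d, which lies on chromosome 1, was listed at 0 throughout.

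**Figure D3:**
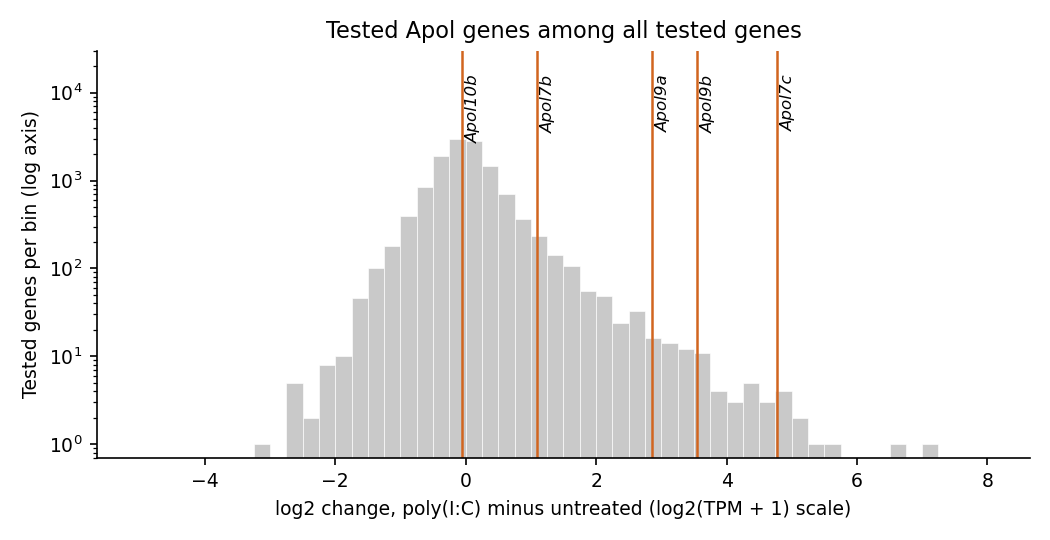
Histogram of the log2 change (poly(I:C) minus untreated, log2(TPM + 1) scale, bins 0.25 wide) over the 12520 tested genes, counts on a log axis, with a line for each of the 5 tested Apol genes. Apol10b stands at the peak at -0.05, Apol7b at 1.09 on the right shoulder, and Apol9a, Apol9b and Apol7c at 2.86, 3.54 and 4.78 in the right tail.

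At the level of transcripts the members have 30 rows in the table, of which 11 were at or near 0 (under 1e-06 TPM) in every library. Of the 8 rows with a mean of at least 0.5 TPM, 6 rose, none fell and 2 did not pass, where 10.6% of 31209 tested transcripts rose and 10.5% fell. Of the 6, NM_173743.4 of Apol9b and NM_173786.1 of Apol9a were under 0.5 TPM in the untreated libraries and passed the limit through the treated ones, as did NM_001162883.1 of Apol9a among those that did not pass the test. The predicted transcripts (XM_) are models from RefSeq's pipeline, and curated here means those with the prefix NM_ or NR_.

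For Apol7c both rows rose, but by different amounts. The curated NM_175391.4 had 0.613 and 3.48 TPM untreated against 180 and 169 TPM treated. The predicted XM_006520277.3 had 10.2 and 6.59 TPM against 138 and 139 TPM. The curated row changed by 6.03 (95% interval 4.59 to 7.48, adjusted p = 0.00514 in limma) and the predicted one by 3.92 (3.35 to 4.48, adjusted p = 0.00161). The predicted row held 94.4% and 65.5% of the gene in the untreated libraries and 43.3% and 45.2% in the treated ones. The untreated libraries thus differ in this split by more than the treated ones do, while their gene totals differ little, and whether the split itself changed with poly(I:C) was not tested.

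For Apol10b the 2 rows went opposite ways while the sum stayed level. The predicted XM_006521088.3 rose from 1.70 and 1.59 TPM to 7.58 and 6.10 TPM, 4.17-fold, with no overlap (log2 difference 1.56, 95% interval 1.10 to 2.03, adjusted p = 0.00832 in limma). Its share of the gene went from 2.61% and 2.62% to 12.2% and 10.4%. The curated NM_177820.4 was at 63.4 and 58.9 TPM untreated and at 54.6 and 52.8 TPM treated, both treated libraries below both untreated ones (-0.18, adjusted p = 0.0917 in limma). The call for the predicted row was lost without NT01 (adjusted p = 0.0560), without NT02 (0.0617) and without PolyIC01 (0.0609).

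For Apol9a the 2 treated libraries had similar sums but an unlike split between rows. In the treated libraries the curated row NM_001162883.1 had 1.08 and 4.77 TPM, and the curated row NM_173786.1 had 5.23 and 2.07 TPM, in the order PolyIC01, PolyIC02. These 2 rows trade places between treated libraries whose gene totals were 7.12 and 7.56 TPM. NM_173786.1 rose (2.11, adjusted p = 0.0325 in limma), a call lost without NT01 (0.139), NT02 (0.146) or PolyIC01 (0.0577), while NM_001162883.1 did not pass (1.61, adjusted p = 0.124) and passed without PolyIC01 (0.0337). For Apol9b the row NM_173743.4 carried the rise, from 0.0692 and 0.313 TPM to 14.3 and 15.1 TPM (3.73, adjusted p = 0.00120 in limma). NM_001168660.1 of the same gene was at 0.310 TPM in NT01 and listed at 0 in the other libraries. The single row of Apol7b, NM_001024848.2, rose by 1.09 among the transcripts (adjusted p = 0.0232 in limma), and this call was lost without any 1 of the 4 libraries (0.0710 to 0.117).

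**Figure D4:**
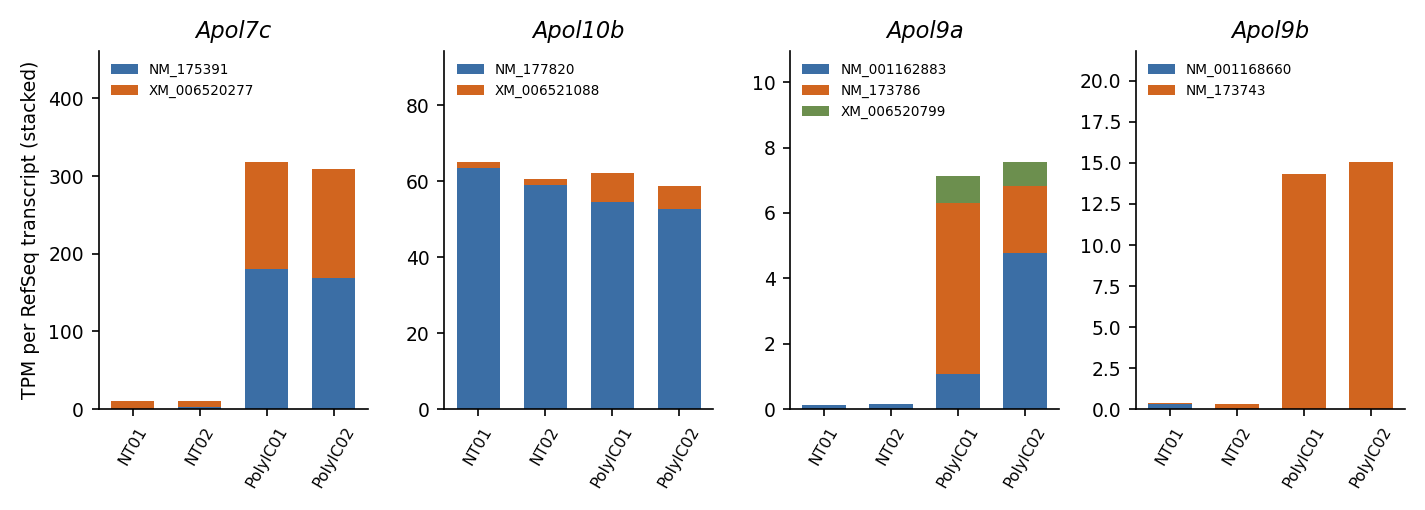
TPM of each RefSeq transcript row of Apol7c, Apol10b, Apol9a and Apol9b, stacked for each of the 4 libraries; each panel has its own vertical axis, which starts at 0. In Apol10b the predicted row grows from 1.70 and 1.59 TPM to 7.58 and 6.10 TPM at a level total, and in Apol9a the curated rows trade places between PolyIC01 and PolyIC02.

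The Apol genes of chromosome 15 span 77045050 to 77757062 (GRCm38, RefSeq annotation), 712 kb in all. Apol6 stands apart, 331 kb before Apol7a, and the other 12 follow each other at gaps of 4.68 to 50.8 kb. Among the tested genes, those that rose do not form one block, since Apol10b lies between Apol7c and Apol9b. Apol9a and Apol7b are neighbours, and Apol10b is the next gene after Apol7c, 50.8 kb away. Apol10a and Apol11a, between Apol7b and Apol7c, were under the limit, so whether they differ from the genes that rose was not tested. Of the 17 other RefSeq genes inside the span, 9 are in the table and none reached the limit in the mean, the highest single value being 0.407 TPM.

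Genes just outside the cluster were mostly level or lower with poly(I:C). Within 500 kb of either end 25 genes were tested, of which 3 rose, 11 fell and 11 did not pass. Of all tested genes 28.4% rose and 32.4% fell. The median log2 change of the neighbours was -0.21, against -0.02 for all tested genes. On the log2(TPM + 1) scale none of them reached a 2-fold rise. The nearest tested gene after the cluster is Myh9, the heavy chain of non-muscle myosin, 3523 bases beyond it, which was at 310 and 291 TPM untreated and at 293 and 283 TPM treated (-0.06, adjusted p = 0.212 in limma). The nearest before it, 1110038F14Rik, lies 94071 bases away and was at 43.9 and 38.5 TPM untreated and at 41.2 and 39.0 TPM treated (-0.03, adjusted p = 0.694). On that scale the highest value among the neighbours was that of Ncf4, a subunit of the phagocyte NADPH oxidase, 487102 bases beyond the cluster, from 127 and 124 TPM to 248 and 254 TPM (0.99, adjusted p = 6.40e-06 in limma). By the ratio of means Ppp1r16a, 350131 bases before the cluster, was higher, at 2.07-fold (2.82 and 3.86 TPM, then 5.83 and 7.97 TPM; log2 change 0.86, adjusted p = 0.00913 in limma), against 2.00-fold for Ncf4. The lowest log2 change among the neighbours was that of Recql4, 334434 bases before the cluster, from 22.0 and 18.2 TPM to 10.4 and 9.09 TPM. Its ratio of means was 0.485 (log2 change -0.97, adjusted p = 0.000727 in limma). Ncf4, Ppp1r16a and Recql4 were named after their values were seen.

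**Figure D5:**
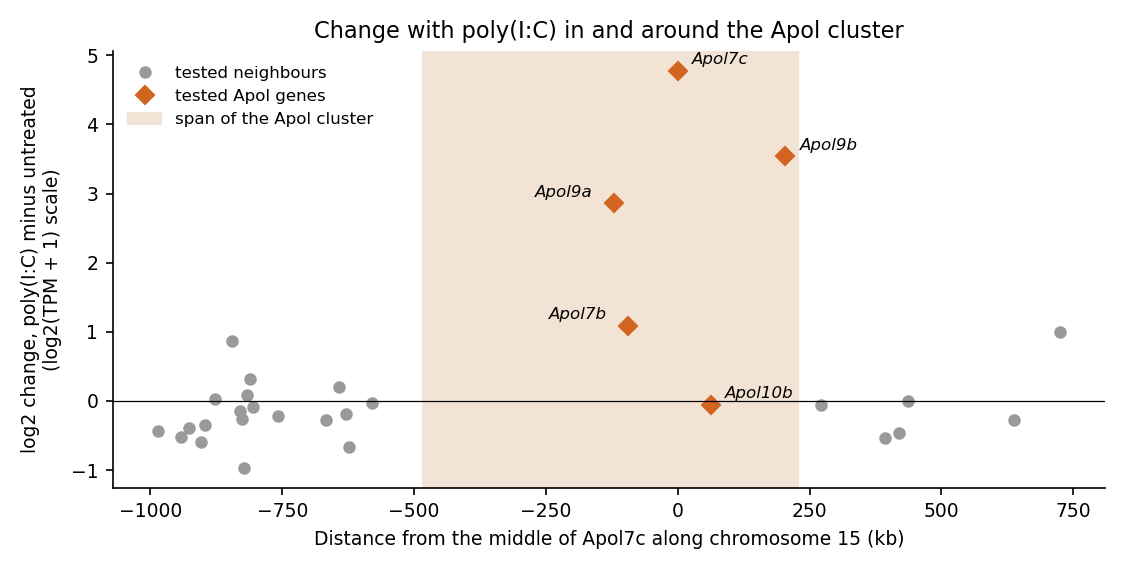
Log2 change (poly(I:C) minus untreated, log2(TPM + 1) scale) of tested genes against the distance in kb from the middle of Apol7c, with Apol genes as diamonds, neighbours as circles and the span of the cluster shaded. The 4 Apol genes that rose lie between 1.09 and 4.78 with Apol10b at -0.05 among them, and the 25 neighbours lie between -0.97 and 0.99.

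Genes that lead from double-stranded RNA to interferon-stimulated genes were mostly higher with poly(I:C). Of 22 such genes 21 were tested, of which 15 rose, 2 fell and 4 did not pass, against 28.4% and 32.4% of all tested genes that rose and fell. The median change was 0.29 on the log2 scale. The largest changes were in Irf7, a transcription factor of the interferon response, from 0.232 and 0.247 TPM to 41.4 and 37.5 TPM (5.03), and in the cytosolic RNA sensor genes Ddx58 (3.69), Ifih1 (2.89) and Dhx58 (2.64). Irf9, an interferon regulatory factor chosen after its values were seen, rose from 101 and 97.2 to 142 and 143 TPM (0.52, adjusted p = 7.30e-05 in limma). Irf7 and Ikbke, both among those that rose, were under 0.5 TPM untreated and were tested through the treated libraries alone. Tlr3, whose product senses double-stranded RNA in endosomes, fell from 261 and 245 TPM to 136 and 151 TPM (-0.81, adjusted p = 0.000172 in limma), and was also named after its values were seen. The untested gene was Ifnb1, at 0.0483 and 0.0420 TPM untreated and at 0.359 and 0.393 TPM treated.

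Genes of the phagosome, of its damage and of the class I route were compared because the title places APOL7C at the phagosome membrane. All 28 were tested, of which 17 rose, 7 fell and 4 did not pass, where 28.4% of all tested genes rose and 32.4% fell. The median change was 0.47 on the log2 scale. The largest changes were in Lgals9 (2.69), Cybb (2.40), the membrane subunit of the phagocyte oxidase, Lgals8 (from 11.1 and 10.0 to 33.2 and 30.2 TPM), a galectin that binds ruptured vesicles, and Lgals3 (1.16), used as a marker of such rupture. Lgals9 was at 48.0 and 46.8 TPM untreated and at 313 and 310 TPM treated, the treated level of Apol7c from a higher start.

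Other genes listed as apolipoproteins were mostly low in these cells. Of 18 such genes 6 were tested, of which 3 rose, none fell and 3 did not pass (28.4% and 32.4% of all tested genes rose and fell), and 7 were listed at 0 in all 4 libraries. Apod, a lipocalin rather than a relative of the Apol genes, rose most, from 0.931 and 0.945 TPM to 23.7 and 24.5 TPM (3.69, adjusted p = 1.93e-06 in limma). Apof (0.93) and Apoa2 (0.83) also rose. Apold1, whose name refers to an apolipoprotein L domain, was under the limit and not tested. It was at 0.423 and 0.440 TPM untreated and at 0.215 and 0.225 TPM treated, and was named after its values were seen. Apoe, the main apolipoprotein of macrophages, was at 7.52 and 6.18 TPM untreated and at 5.75 and 4.77 TPM treated (-0.33, adjusted p = 0.0649 in limma).

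Markers of macrophages moved with poly(I:C) as well. Of 11, 8 were tested, and 6 of these rose, none fell and 2 did not pass, beside 28.4% and 32.4% of all tested genes. Among those that rose were C1qa, C1qb, C1qc, Ms4a7 and Fcgr1, the last tested through the treated libraries alone. The list had summed levels of 351 and 357 TPM untreated and 767 and 782 TPM treated. The defining markers Csf1r, Mertk and Cd163 stayed under 0.5 TPM in each library. Of 18 markers of other cell types 7 were tested, and 6 were listed at 0 throughout. Of the 7, 4 rose (Bst2, Cd3d, Ms4a1 and Sirpa), 2 fell (Epcam and Cdh1) and 1 did not pass. Among all tested genes 28.4% rose and 32.4% fell. Sirpa was tested through the treated libraries alone, and Cdh1 through the untreated ones alone. The T cell marker Cd3d went from 1.01 and 0.678 TPM to 1.59 and 1.47 TPM, while Cd3e of the same receptor complex was listed at 0. The B cell marker Ms4a1 went from 3.18 and 3.58 to 6.74 and 5.76 TPM, and Sirpa, of other myeloid cells, from a listed 0 and 0.365 to 1.79 and 2.14 TPM. Their sum of 198 and 202 TPM untreated and 1305 and 1278 TPM treated was nearly all Bst2 (175 and 179, then 1280 and 1254 TPM), a plasmacytoid marker that interferon also induces. The part of other cells in the Apol values was not tested, and in bulk RNA more cells of a kind and more RNA per cell cannot be told apart.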

How the data were processed

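Polyadenylated RNA of MuTuDC1940 cells was sequenced by the authors, and kallisto 0.42.4, bcl2fastq 2.20.0.422 and GRCm38 appear, per the submitters' processing notes, without their roles. The deposited values are TPM per RefSeq transcript, since every column used adds up to 1000000, although the name of the table says FPKM. The sources used here do not say whether strand was used, or how reads shared by near-identical transcripts were divided. The header gives 5 names to 6 columns of values, so a name after NT01 may belong to the column beside it. The 4 columns whose group is the same under either reading were used, and the other 2 in no step. The labels do not say that samples were separate cultures, so p-values measure only the spread between libraries, which may be technical.

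Of 107384 transcripts, 86722 (80.8%) matched a symbol of the RefSeq table (GRCm38.p6) by accession without version. Their TPM were summed to 32903 genes, and log2(TPM + 1) was compared with limma 3.58.1 (R 4.3.3, intensity trend, robust moderation, 2 residual degrees of freedom), with Benjamini-Hochberg adjustment over all genes, or all transcripts, with a mean of at least 0.5 TPM. The fit was tested on simulated data in which only genes above the untreated levels of Apol9a, Apol9b and Apol7b were changed. That test cannot speak for changes of such low genes or for reads shared between near-identical genes. Promoter windows came from the RefSeq table and coding sequences and 31-base words from GENCODE M21 (Biopython 1.88, pandas 2.3.3).

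The members and gene lists were chosen with earlier results of these data known. Genes were named by rule: every Apol gene and transcript row, up to 4 passing genes per list, the nearest tested gene on each side of the cluster and neighbours with a 2-fold change, and the 5 nearest profiles of Apol7c and Apol10b.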

Additional observations from a re-analysis of the deposited data

How the results depend on the processing

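No paired analysis was possible because the column names do not settle which replicate number a library carries. Apol7c, Apol9a and Apol9b rose under all 11 alternatives (pseudocounts, limits on low values, curated transcripts, centring on the library median, fits without trend or robust moderation, each library left out), Apol7c by 4.73 to 6.03 with adjusted p of at most 0.0352 in limma. Of 54 alternative values of the 5 tested genes, 52 kept their call. The exceptions were Apol7b without a limit (adjusted p = 0.127 in limma) and Apol10b, which fell from curated transcripts alone (0.0298). The same curated Apol10b values did not pass among all transcripts (adjusted p = 0.0917 in limma). Of 39 values for transcripts, 10 lost and 1 gained a call. Without a limit on low values 443 genes rose and 136 fell, against 3556 and 4062, with 32903 genes tested in place of 12520. Leaving out each library in turn, where the lone library is assumed to vary like the other group, gave 2722 to 3756 that rose and 3402 to 3951 that fell. From curated transcripts alone Apol7c held 3.18% of the summed Apol TPM untreated and 68.8% treated, since its predicted row was left out. The untreated value rests on unlike libraries, 0.926% in NT01 and 5.43% in NT02. Apol7b was not tested at a limit of 2 TPM. With 2 libraries per group and no counts, counting error at low levels is unknown.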
